A study of Mus musculus with 24 samples.

Results

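Total H2AX in cells lacking SIRT7 was set against the input DNA of the same cells, bin by bin along the 19 autosomes. The libraries concerned were 4 of the 24 samples of the series, 2 of H2AX and 2 of input. The table holds 2738 bins of 1 Mb, of which 2473 were autosomal, and 2414 of these were kept because their mean count over the 4 libraries was at least 100, which removed 59. The cells were female mouse cells of C57BL6/CAST hybrid strain that the labels call TTF, an abbreviation they leave unexplained, with the genotype SIRT7-KO. Wild-type (WT) cells of the same strain, sex and label served as the comparison, again with 2 H2AX and 2 input libraries. All samples, WT and KO alike, are labelled as having received 5 Gy of X-rays followed by 30 min of recovery, so no unirradiated group is labelled. The 2 data columns of each group nevertheless end in NT and Xray. They were treated as the 2 replicates the labels give, and are told apart below as NT-named and Xray-named. The labels do not explain NT, which may mean not treated. In that case each group would hold 2 conditions without replicates, and each SE and p-value would include the difference between them. The labels state neither the allele of the knockout nor whether the libraries came from separate cultures or clones. P-values therefore measure the spread between these libraries, which may be technical. The assays read DNA, so no marker of cell type could be checked.

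H2AX is a variant of the core histone H2A that is built into nucleosomes throughout the genome. Around a DNA break the kinases ATM, ATR and DNA-PK phosphorylate its tail, giving γH2AX, and the amount of total H2AX sets how much of this substrate a region holds. SIRT7 is an NAD-dependent deacylase of chromatin known for roles at ribosomal DNA and in DNA repair. In chromatin immunoprecipitation with sequencing, an antibody to H2AX recovers DNA fragments bound to H2AX, while input is sheared chromatin DNA taken before that step. The ratio of the H2AX library to input is read here as the relative density of H2AX along the genome. It also moves where input alone changes, and carries no information on the total amount of H2AX. The samples include no library of another histone or of a control antibody. GC and repeat shares of the bins were not computed, so their part in the ratio was not tested.

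To show what kind of sequence the ends of the range hold, the 250 bases before the gene start are given for the promoter with the most CG dinucleotides in the bin with the highest ratio, and for the one with the fewest in the bin with the lowest. They belong to Picalm (chr7:90129963-90130212, plus strand), which encodes an adaptor of clathrin-coated vesicles, and to Col9a1 (chr1:24177360-24177609, plus strand), which encodes a chain of a cartilage collagen. Both are RefSeq sequences of build GRCm38.p6, read 5′ to 3′, with each CG in capitals.

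Picalm: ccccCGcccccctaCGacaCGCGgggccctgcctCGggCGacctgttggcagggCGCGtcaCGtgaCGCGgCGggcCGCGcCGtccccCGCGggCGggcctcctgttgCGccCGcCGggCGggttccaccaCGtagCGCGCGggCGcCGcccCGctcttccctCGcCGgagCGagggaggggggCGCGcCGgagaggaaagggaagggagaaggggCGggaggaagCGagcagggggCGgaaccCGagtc
Col9a1: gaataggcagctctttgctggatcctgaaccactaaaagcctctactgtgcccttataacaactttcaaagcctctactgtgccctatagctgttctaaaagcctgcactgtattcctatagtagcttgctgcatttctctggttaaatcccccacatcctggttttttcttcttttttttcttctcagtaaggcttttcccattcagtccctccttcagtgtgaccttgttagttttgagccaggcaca

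The Picalm promoter holds 39 CG dinucleotides and the Col9a1 promoter 0. Since each was picked for its CG count, their contrast is an illustration and no result. CG reads the same on both strands, and its occurrences were counted without overlap with any other motif. Of 20085 RefSeq promoters in the tested bins, 51.3% held at least 10 CG in these 250 bases and 6.31% held 0. Among 12408 promoters in bins with more H2AX than input the shares were 56.7% and 3.43%, and among 4354 in bins with less they were 38.5% and 14.1%. The mean count of CG per promoter was 13.4 in the former and 9.65 in the latter. Across the 1930 bins with promoters in the table, the log2 ratio and the mean CG count per promoter correlated weakly (Pearson r = 0.20, Spearman rho = 0.23). Bins are neighbours in 1 genome and share libraries, so these correlations are descriptions without a p-value.

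The 4 KO libraries held 170013624 to 223813341 reads, with 55290 to 72728 reads in the median bin. Counting error was thus below the spread between libraries. Each count was scaled to 1000000 autosomal reads of its library (rpm). Between the NT-named and Xray-named libraries, log2 rpm differed by an SD over bins of 0.024 in H2AX and 0.0253 in input. In WT these SDs were 0.0465 in H2AX and 0.0239 in input, so the WT H2AX libraries spread more. A single bin, chr2:98000001-99000000, held 67300 and 66000 rpm in the H2AX libraries (NT-named, then Xray-named) and 67900 and 67800 rpm in the input libraries, and dominates the chromosome 2 total. The bin that holds Sirt7 gave 291 and 291 rpm in H2AX and 228 and 228 in input of KO cells, and also holds 46 protein-coding genes in all, so it does not check the knockout itself.

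The ratio of H2AX to input varied along the autosomes of KO cells, in broad domains and by modest amounts. Of the 2414 bins, 1958 (81.1%) differed from input at an adjusted p under 0.05 in edgeR's quasi-likelihood test. In 887 of them (36.7%) H2AX was higher than input and in 1071 (44.4%) it was lower. The median fold of the higher bins was 1.09 and that of the lower bins 0.923. Over all bins the log2 ratio had a median of -0.02, and 90% of bins lay between -0.24 (5th percentile) and 0.24 (95th percentile). The extremes were -1.12 and 0.48. At a median standard error of 0.0177 the test passed very small differences, and 307 bins were higher and 311 lower beyond 1.1-fold. With the γH2AX and WT libraries in the estimate of spread, 473 were higher and 664 lower, and with the column name as a replicate block 595 were higher and 626 lower. The 2 H2AX libraries both lay above both input libraries in each of the 887 higher bins, and both below in 1070 of the 1071 lower bins. The ratio of the NT-named pair of libraries had the same sign as that of the Xray-named pair in 2266 of 2414 bins, with r = 0.981 between the pairs.

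The ratio followed the number of protein-coding genes in a bin, each counted where its lower coordinate lies, on either strand. A bin without such a coordinate is called gene-free, though a gene may reach into it from another bin. Gene-free bins (n = 287) had a median log2 ratio of -0.10. Of them 231 (80.5%) were lower than input and 20 (6.97%) higher. With 3 to 5 genes the median was -0.05, and with 6 to 10 genes it was 0.0037, the point at which higher bins (39.7%) first outnumbered lower ones (33.3%). With 11 to 20 genes it was 0.09, with 66.4% of 417 bins higher, and with 21 to 40 genes it was 0.14, with 78.5% of 200 bins higher. In the 47 bins with 41 to 66 genes the median was 0.19, yet 10 of these bins were lower. The median H2AX level moved from 293 rpm in gene-free bins to 414 rpm in the class with the most genes, and the median input level from 311 to 389 rpm. Over all bins the log2 ratio correlated with gene number at r = 0.47 and rho = 0.55, and within single autosomes rho ran from 0.28 to 0.73. With the input level itself the correlation was r = 0.0017, and between each bin and its next neighbour it was r = 0.69 (n = 2395).

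**Figure D1:**
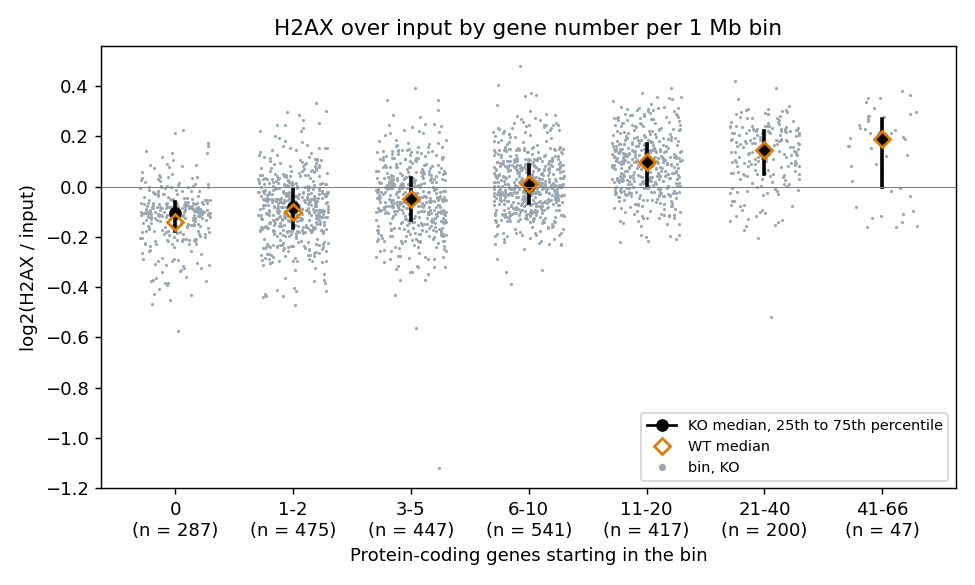
Log2 ratio of H2AX to input (vertical axis) in KO cells for each of the 2414 bins (grey points). The horizontal axis is the number of protein-coding genes with their lower coordinate in the bin. Black circles and bars give the median and the 25th to 75th percentile, and orange diamonds the WT median. The median moves from -0.10 without genes to 0.19 in the class with the most genes.

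Gene-dense bins were mostly high, and those with olfactory or vomeronasal receptor genes lay on both sides. Among the 247 bins with at least 21 genes, 190 were higher and 31 lower. Outside bins of olfactory and vomeronasal receptor genes, 170 of 190 gene-dense bins (89.5%) were higher and 8 (4.21%) lower, with a median log2 ratio of 0.19. Inside them 20 of 57 (35.1%) were higher and 23 (40.4%) lower, with a median of -0.02. Over all 7 family lists together, 33 of 73 gene-dense bins (45.2%) were higher and 24 (32.9%) lower, with a median of 0.01. The 8 gene-dense lower bins outside the olfactory and vomeronasal families included the prolactin family (log2 ratio -0.52) and C-type lectin genes of the Clec and Klr families (-0.20). Others held Sprr genes of the epidermal cornified envelope (-0.14), type I interferon genes (-0.13) and Ugt2 genes of glucuronidation (-0.11). The rest were the bins of Zfp genes of chromosome 13 (-0.07), of Tas2r bitter taste receptor genes beside salivary proline-rich protein genes (-0.07), and a bin of chromosome 9 rich in repeats (-0.06). These splits were made after the values were seen and are given without a test.

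The highest ratio belonged to chr7:90000001-91000000, which holds Picalm, Sytl2 (vesicle docking), Crebzf (a leucine zipper factor) and the start of Dlg2 (a synaptic scaffold). H2AX reached 769 and 717 rpm there and input 516 and 550 rpm, a log2 ratio of 0.48 (SE 0.0168). That SE comes from the spread pooled over bins and not from the spread of this bin itself. The ratio was 0.57 in the NT-named and 0.38 in the Xray-named pair, and with the column name as a replicate block the bin no longer passed (adjusted p = 0.0511, edgeR). The bin stood out against its 2 neighbours in both assays, since these held 231 to 305 rpm in H2AX and 301 to 330 rpm in input, and their own log2 ratios were -0.38 and -0.11. The bin chr14:45000001-46000000 also stood out in both assays. It holds Psmc6 (a proteasome ATPase), Ero1a (an oxidase of the endoplasmic reticulum) and Fermt2 (kindlin-2, an activator of integrins). Its H2AX levels were 636 and 598 rpm and its input levels 459 and 475 rpm, for a log2 ratio of 0.40, with 0.47 in the NT-named and 0.33 in the Xray-named pair. Its neighbours held 277 to 314 rpm in H2AX and 267 to 326 rpm in input. What sets these bins apart in input was not tested.

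In the other 10 leading bins input stayed closer to the level of the neighbouring bins, and in all but 1 the neighbours were called higher too. The exception, chr17:56000001-57000000, holds Uhrf1 (maintenance of DNA methylation), Chaf1a (the large subunit of the chromatin assembly factor CAF-1), Kdm4b (a histone demethylase) and Rpl36 among 40 genes. It gave 541 and 545 rpm in H2AX against 408 and 404 in input, a log2 ratio of 0.42 (SE 0.0167), while its neighbours had ratios of -0.07 and 0.04. The bin chr10:80000001-81000000 holds 53 genes, among them Stk11 (the kinase LKB1), Gpx4 (a lipid hydroperoxide reductase), Dot1l (the H3K79 methyltransferase) and Tcf3 (the factor E2A). It gave 961 and 965 rpm in H2AX against 750 and 729 in input, a log2 ratio of 0.38. At chr8:122000001-123000000, with Piezo1 (a mechanosensitive channel), Cdt1 (replication licensing) and Aprt (adenine salvage), levels were 526 and 535 rpm against 408 and 400 rpm, a log2 ratio of 0.39. At chr5:140000001-141000000, with Mad1l1 (spindle checkpoint) and Lfng (a glycosyltransferase of Notch), they were 449 and 459 rpm against 347 and 345 rpm, again 0.39.

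Neighbouring bins shared the high values on chromosomes 4 and 8. The bins chr4:152000001-153000000 and chr4:153000001-154000000 had log2 ratios of 0.37 and 0.39, and hold Chd5 (a chromatin remodeller) and Rpl22, and Dffb (the nuclease of apoptotic DNA fragmentation), respectively. The bin chr4:140000001-141000000, with Padi1 to Padi4 and Padi6 (peptidylarginine deiminases), Rcc2 and Sdhb, reached 0.36. On chromosome 8, the bin from 120000001 with Irf8 (a myeloid transcription factor), Gins2 (replication) and Cox4i1 (respiration) reached 0.37. The remaining leading bins were chr17:25000001-26000000 with Stub1 (a ubiquitin ligase that works with chaperones) at 0.36 and chr5:125000001-126000000 with Scarb1 (a lipoprotein receptor) at 0.36.

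The lowest ratio by far was that of chr1:24000001-25000000, with Col9a1 and Col19a1 (collagen chains), Lmbrd1 and Fam135a. H2AX was 277 and 282 rpm and input 601 and 615 rpm, a log2 ratio of -1.12 (SE 0.0168), so that H2AX stood at 46% of input. Its H2AX level lay within the 259 to 283 rpm of the neighbouring bins, whereas its input exceeded the neighbours' 264 to 303 rpm. The second lowest among bins with genes, chr2:22000001-23000000 with Gad2 (GABA synthesis), Abi1 (actin regulation) and Myo3a, showed 368 and 369 rpm against 540 and 549 rpm, a log2 ratio of -0.56. Its neighbours had 410 to 421 rpm in H2AX and 440 to 445 rpm in input. As background, the chromosome 1 stretch is known to hold a nuclear copy of mitochondrial DNA, which carries no histones. The mitochondrial bin of the same table held 2300 and 2330 rpm in the input libraries but 10.6 and 9.51 rpm in the H2AX libraries, a 231-fold difference of the means. In WT it held 1760 and 1710 rpm in input and 7.54 and 6.66 rpm in H2AX. The part of mitochondrial reads in either nuclear bin was not tested.

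The bins on either side of the remaining low bins were all called lower as well, and most of these low bins held few genes. The prolactin cluster, chr13:27000001-28000000 with 21 genes of this hormone family, gave 287 and 276 rpm in H2AX against 408 and 399 in input, a log2 ratio of -0.52, and the preceding bin with Hdgfl1 gave -0.44. Sema3d lay in a bin at -0.47 (258 and 251 rpm against 356 and 350 rpm) and Sema3a in the next at -0.43, both encoding secreted semaphorins. The bin of Slit2, a repellent of growing axons, was at -0.44 with 266 and 254 rpm against 356 and 347 rpm. Lrrc4c, a netrin-G ligand, lay at -0.44 and Cdh18, a cadherin, at -0.42. Inhba (the activin A subunit) and Sugct shared a bin at -0.42, Izumo3 lay at -0.43 and Klf6, a zinc finger factor, at -0.41. Bins without a protein-coding gene reached -0.57 at chr10:16000001-17000000, with 486 and 471 rpm in H2AX against 723 and 702 rpm in input, and -0.47 at chr5:80000001-81000000.

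High and low bins were grouped along the chromosomes. The 887 higher bins formed 241 runs of adjacent bins and 59 runs held at least 5 bins, covering 553 bins. The longest spanned 41 bins at chr5:110000001-151000000, with a mean log2 ratio of 0.22 and 554 genes. It was followed by 34 bins at the end of chromosome 4 (from 123000001, mean 0.24, 542 genes), 25 bins at chr2:150000001-175000000 (mean 0.19, 345 genes) and 25 at the end of chromosome 7 (from 121000001, mean 0.17, 362 genes). The lower bins formed 282 runs, of which 78 held at least 5 bins, covering 690 bins. The longest was chr16:49000001-73000000 with 24 bins, a mean of -0.18 and 87 genes. Others spanned 22 bins at chr14:81000001-103000000 (mean -0.11, 20 genes), 20 at chr10:19000001-39000000 (mean -0.13, 104 genes) and 20 at chr2:39000001-59000000 (mean -0.16, 46 genes). The longest higher runs thus held 13.5 to 15.9 genes per bin, and the longest lower runs 0.909 to 5.2.

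**Figure D2:**
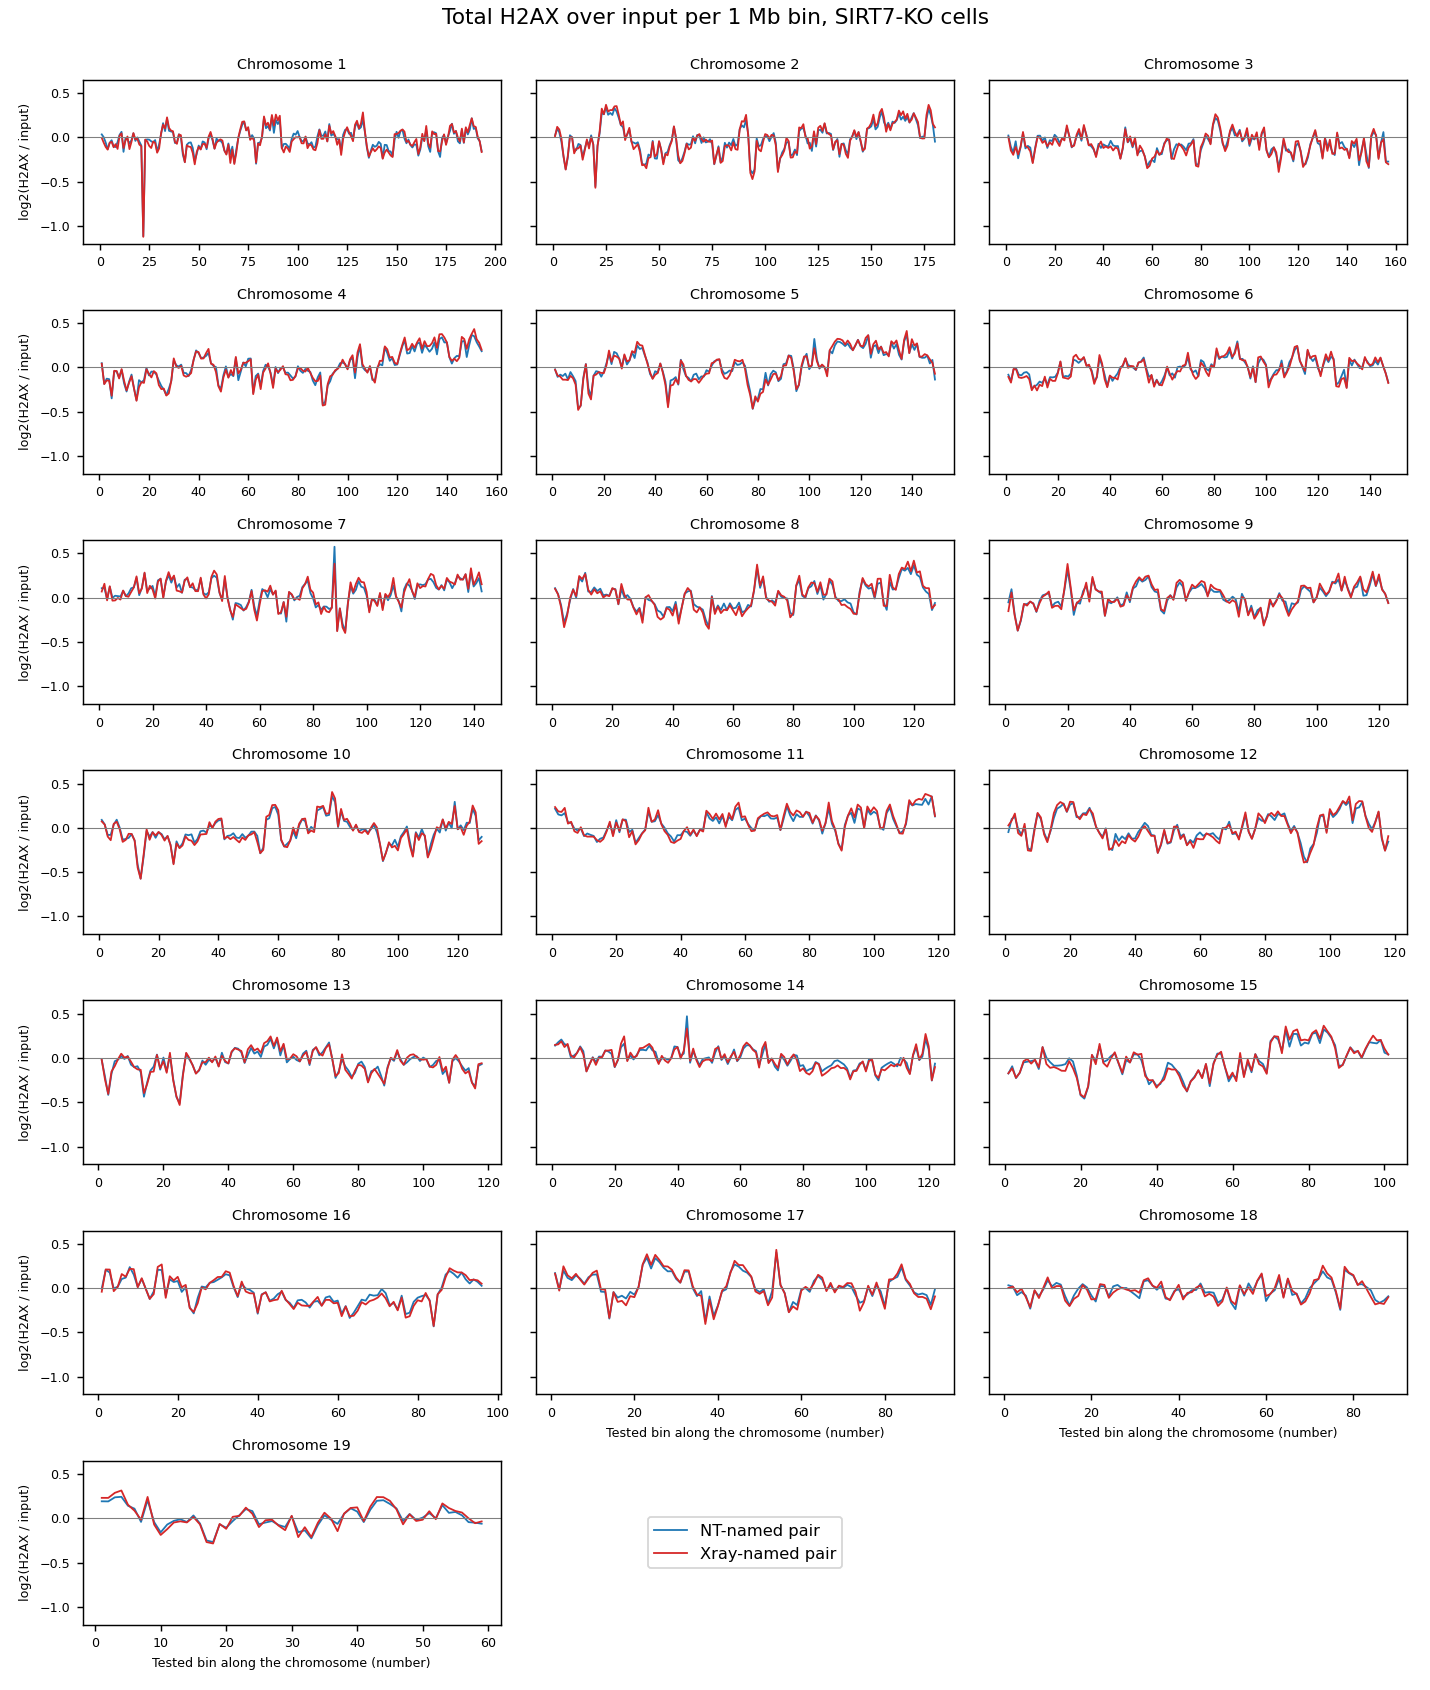
Log2 ratio of H2AX to input (vertical axis) along each autosome of KO cells, by the number of the tested 1 Mb bin counted from the first (horizontal axis). Blue lines are the NT-named pair of libraries and red lines the Xray-named pair. The 2 lines run together (r = 0.981 over bins), and the lowest point is the chromosome 1 bin at -1.12.

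Summed over whole chromosomes the ratios were smaller, since high and low domains share a chromosome. Of the 19 autosomes 18 (94.7%) passed the test, 10 higher and 8 lower, with chromosome 2 at -0.01 (adjusted p = 0.144). Chromosome 11 had the highest ratio, with 4.796% and 4.83% of autosomal reads in H2AX against 4.532% and 4.513% in input, a log2 ratio of 0.09 (SE 0.00325). Chromosome 7 followed at 0.07, then chromosome 17 at 0.04 and chromosome 5 at 0.03. Chromosome 3 had the lowest, with 4.905% and 4.892% in H2AX against 5.205% and 5.194% in input, a log2 ratio of -0.09 (SE 0.00312). Chromosomes 13 (-0.05), 10 (-0.04) and 16 (-0.04) came next. Chromosomes 2 and 6 changed sign under another scaling, with 0.0041 and 0.0042 under DESeq2's size factors, which left 10 autosomes higher and 5 lower. Without the repeat-rich bins chromosome 14 moved from 0.03 to 0.0049 and no longer passed (adjusted p = 0.0778, edgeR), and with the γH2AX libraries in the fit only 6 autosomes passed. Chromosomes with more genes per bin had higher ratios (r = 0.75, rho = 0.68 over 19 autosomes, as a description). Chromosome 7 held 14.2 and chromosome 11 13.5 genes per bin, against 6.26 on chromosome 3.

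**Figure D3:**
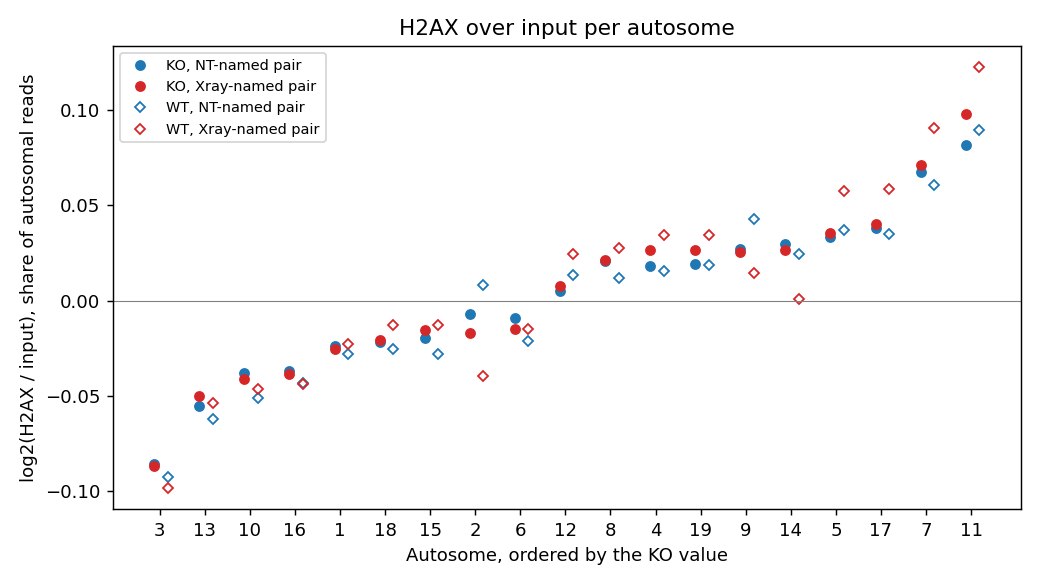
Log2 ratio of the share of autosomal reads in H2AX to that in input (vertical axis) for each autosome (horizontal axis, in order of the KO value). Filled circles are KO and open diamonds WT, with blue for the NT-named and red for the Xray-named pair. Values run from -0.09 on chromosome 3 to 0.09 on chromosome 11, and the WT pairs lie further apart than the KO pairs except on chromosome 16.

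The ratio was also read by distance from the ends of chromosomes. In the fourth bin from the distal end of the 19 autosomes, 15 bins were higher and 4 lower (median 0.14), and in the last bin 4 were higher and 13 lower (median -0.06). The first 5 bins had 35 higher and 41 lower of 95, near the shares of all bins, and the last 5 had 52 higher and 36 lower of 95 (median 0.06). These positions were singled out after the values were seen. Chromosomes 12, 15, 16, 18 and 19, listed here as carrying ribosomal DNA, had 155 higher and 221 lower of 462 bins. Their shares (33.5% and 47.8%, median -0.03) were near the 36.7% and 44.4% of all bins. These counts cover whole chromosomes, and ribosomal DNA itself was not read apart.

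Lists of genes were then read through the bins that hold their lower coordinate, where a ratio belongs to the whole megabase and to all genes in it. Of 11 bins with p53 target genes 10 were higher and 1 lower (90.9% and 9.09%), against 36.7% and 44.4% of all bins, with a median log2 ratio of 0.19 against -0.02. The shares over all bins hold as the background for each list that follows. Gdf15, a stress-induced cytokine, lay in a bin with 476 and 479 rpm in H2AX and 378 and 370 rpm in input (log2 ratio 0.35). Bax, an effector of apoptosis, lay at 0.28 and Cdkn1a, the cell cycle inhibitor p21, at 0.24 with 483 and 487 rpm against 412 and 410 rpm. Mdm2, the ubiquitin ligase of p53, lay at 0.09, and Ccng1 (cyclin G1) in the only lower bin, at -0.16 with 267 and 268 rpm against 298 and 302 rpm. The median bin of the list held 17 protein-coding genes, against 5 over all bins, and the part of gene number in this count was not tested.

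Genes of the response to DNA breaks lay on both sides. Among 13 bins 8 were higher (61.5%), 3 lower (23.1%) and 2 not called, against 36.7% higher and 44.4% lower over all bins, with a median of 0.11 and 18 genes in the median bin. Of the kinases that phosphorylate H2AX, Prkdc (the catalytic subunit of DNA-PK) lay in a lower bin, with 422 and 414 rpm in H2AX and 459 and 450 rpm in input (log2 ratio -0.12). The bin of Atr was at -0.05 and also lower. The bin of Atm was not called, at -0.02, with 299 and 301 rpm against 306 and 301 rpm. Mdc1, the adaptor that binds γH2AX, lay at 0.19 with 533 and 533 rpm against 468 and 464 rpm. The ubiquitin ligases Rnf8 and Rnf168, which act after it, lay at 0.24 and 0.11. Rnf8 shares its bin with Cdkn1a. Trp53bp1, the repair factor 53BP1, lay in a bin at 0.01 that was not called. The MRN complex, which senses breaks, split between Rad50 (0.14), Mre11a (0.04) and Nbn (-0.09). Brca1 lay at 0.16, Chek2 at 0.19, and H2ax itself at 0.22 with 371 and 373 rpm against 320 and 318 rpm.

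Genes typical of fibroblasts and genes typical of other cell types were compared as bins. Of 13 bins of fibroblast genes 6 were higher and 7 lower, with a median of -0.11 and 8 genes in the median bin. The lowest was the bin shared by Dcn and Lum, 2 matrix proteoglycans, with 530 and 524 rpm in H2AX and 688 and 677 rpm in input (log2 ratio -0.37). Fap (a surface protease, -0.29), Col3a1 (collagen III, -0.28), Col1a2 (collagen I, -0.16), Fn1 (fibronectin, -0.16), Vim (vimentin, -0.14) and Postn (periostin, -0.11) lay in the other lower bins. Col1a1, the partner chain of Col1a2, lay in a higher bin at 0.14 with 542 and 538 rpm against 492 and 488 rpm, as did Sparc (0.14), Pdgfrb (0.16) and Thy1 (0.22). Of 10 bins with genes of muscle, epithelium, blood, vessel or nervous tissue 9 were higher, with a median of 0.21 and 26 genes in the median bin. Rbfox3, the neuronal marker NeuN, lay at 0.36 with 262 and 273 rpm against 209 and 210 rpm, Sox10 (neural crest) at 0.30 and Myod1 (muscle) at 0.24. Ptprc, the leukocyte antigen CD45, lay in the lower bin at -0.23. Without RNA from these cells the ratios could not be set against expression.

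**Figure D4:**
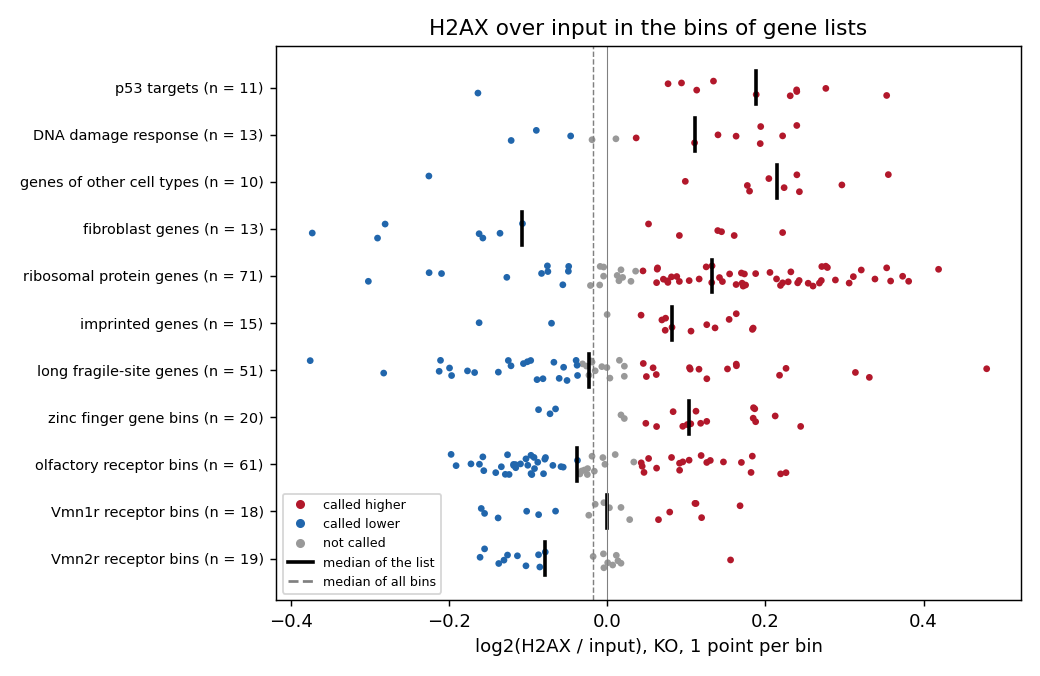
Log2 ratio of H2AX to input (horizontal axis) in the bins of 11 gene lists (vertical axis), 1 point per bin, in red where H2AX was called higher, blue where lower and grey where not called. Black bars are the medians of the lists and the dashed line the median of all bins (-0.02). The p53 targets (0.19) and genes of other cell types (0.21) lie to the right, and fibroblast genes (-0.11) and Vmn2r receptors (-0.08) to the left.

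Ribosomal protein genes were picked by symbol, so paralogs such as Rpl10l and Rpl39l are among them. They lay in 71 bins, of which 50 (70.4%) were higher and 10 lower. The median was 0.13, with 16 genes in the median bin. They ranged from Rpl36 at 0.42 and Rps15 at 0.38 to Rps23 at -0.30 (330 and 325 rpm against 410 and 397 rpm) and Rpl37 at -0.23. Imprinted genes lay in 15 bins, 12 of them higher and 2 lower, with a median of 0.08. The bins of Kcnq1ot1 and Peg13 were the highest, both at 0.18, those of Plagl1 (-0.07) and Peg10 (-0.16) were lower, and that of Grb10 was not called at 0.00. Of 20 bins with clusters of Zfp genes 15 were higher and 3 lower (median 0.10). Olfactory receptor bins were higher in 19 and lower in 31 of 61 (median -0.04), Vmn1r pheromone receptor bins higher in 6 and lower in 6 of 18 (median -0.0006, which another scaling put at 0.02), and Vmn2r bins higher in 1 and lower in 10 of 19 (median -0.08). The 4 bins of replication-dependent histone genes had 1 higher and 2 lower (median -0.07), and the 5 bins of Hox clusters 3 higher and 1 lower (median 0.04). Keratin bins were higher in 2 of 3 and beta-defensin bins in 2 of 4, with none lower in either.

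Long genes known as fragile sites, which often break when replication is slowed, covered 51 bins, 16 higher and 23 lower, with a median of -0.02, as in all bins. The bins of 1 gene mostly shared a direction. Cdh13 had 0.33 and 0.31 in its 2 bins, with 500 and 509 rpm in H2AX and 400 and 403 rpm in input in the first. Wwox had 0.22 and 0.10 and Auts2 0.15 and 0.16. Ctnna3 had -0.14, -0.21 and -0.20, Macrod2 -0.17, -0.21 and -0.03, of which the last was not called, and Lrp1b -0.10, -0.09 and -0.07. Dlg2 had both directions, with 0.48 in the bin it shares with Picalm and -0.38 and -0.12 in the next.

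Among 7 bins chosen for their repeats 3 were higher and 3 lower. The bin chr17:39000001-40000000 had the largest difference, with 464 and 462 rpm in H2AX and 601 and 611 rpm in input (log2 ratio -0.39). The very deep bin of chromosome 2 was at -0.03, and the deep bins chr9:3000001-4000000 and chr14:19000001-20000000, with 17100 and 15400 rpm in the NT-named H2AX library, at 0.08 each.

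The same comparison in WT cells gave nearly the same map. In WT 1834 bins (76%) differed from input, 838 higher and 996 lower. Of all bins 793 were higher in both genotypes and 951 lower in both, while 4 were called in opposite directions. Across bins the KO and WT log2 ratios correlated at r = 0.963 and rho = 0.966, as a description, since bins are not replicates. The ratio varied somewhat less in KO than in WT, with an SD over bins of 0.151 against 0.165 and a slope of 0.88 of KO on WT. Such a slope also falls with scatter around the line. The WT H2AX libraries spread more than those of KO, and the difference in SD was not tested. The relation to gene number was alike as well (rho = 0.55 in both). In gene-free bins the median was -0.10 in KO and -0.14 in WT. No autosome had a difference between KO and WT past the threshold, with 0 of 19 called by edgeR and 0 at an unadjusted p under 0.05, and differences ran from -0.02 to 0.02 on the log2 scale.

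Tested as a difference of differences over the 8 libraries, KO and WT differed in 40 bins (1.66%), 18 with a higher ratio in KO and 22 with a lower one, and 312 bins had an unadjusted p under 0.05. This count depended on the fit. It was 0 when the 4 γH2AX libraries shared the estimate of spread (88 bins at an unadjusted p under 0.05), 177 with DESeq2, and 45 with TMM factors, of which 27 were higher in KO and 18 lower. Leaving out single libraries gave 13 (without the NT-named KO input) to 537 (without the NT-named WT H2AX library). Most of the 40 bins were poor in genes counted by lower coordinate, with a median of 1 gene against 5 over all bins. By that count 13 (32.5%) were gene-free, against 11.9% of all bins. Genes can still reach into such bins, as Dpp10 does into chr1:124000001-125000000. In 35 of the 40 H2AX was below input in both genotypes, so that the genotypes differed in how far below. Over all 2414 bins, 951 were called lower in both, a stricter count. Among gene-free bins 80.5% were called lower in KO, and the part of gene number in the 35 was not tested.

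The level of each assay was also read apart. Each bin's KO to WT ratio was set against the median of the 5 bins on either side, for each assay apart. Input stood further from its surroundings than H2AX in 32 of the 40 bins (80%) and H2AX in 8, whereas over all 2414 bins input stood further in 48.5%. The 40 bins were chosen by their KO minus WT difference, so these shares are a description. The smallest p belonged to chr12:95000001-96000000, which holds Flrt2, a membrane protein of cell adhesion and axon guidance. Its log2 ratio was -0.39 in KO (310 and 307 rpm in H2AX, 406 and 399 rpm in input) and -0.10 in WT (345 and 338 rpm, 367 and 366 rpm), a difference of -0.28 (SE 0.0247, adjusted p = 0.000279). Against the 10 bins around it, input was higher in KO relative to WT by 0.15 on the log2 scale, and the H2AX value was -0.10. The gene-free bin chr2:95000001-96000000 was at -0.38 in KO and -0.16 in WT, a difference of -0.22 (adjusted p = 0.001).

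On chromosome 10 the direction was the opposite. The bin of Marcks, a substrate of protein kinase C, from 37000001, had -0.05 in KO (563 and 558 rpm in H2AX, 576 and 586 rpm in input) and -0.32 in WT (425 and 409 rpm, 522 and 517 rpm), a difference of 0.26 (SE 0.0289, adjusted p = 0.001). Against the 10 bins around it, input was lower in KO relative to WT by 0.21 on the log2 scale and H2AX higher by 0.03. The gene-free bin from 48000001 differed by 0.23 (adjusted p = 0.00157), and the adjacent bin with Grik2, a glutamate receptor gene, by 0.24. For the bin from 48000001 the values against the bins around were 0.09 for H2AX and -0.09 for input, and for the bin of Grik2 0.09 and -0.10. The bin of Col9a1 on chromosome 1 differed by -0.23 (adjusted p = 0.00128), being at -0.89 in WT (293 and 289 rpm in H2AX, 543 and 537 rpm in input). There input was higher in KO relative to WT by 0.27 against the bins around, whereas H2AX differed by -0.0003. The same held for the bin of Gad2, with 0.10 for input and 0.0002 for H2AX. Mitochondrial reads in input were higher in KO than in WT as given above, and their part in these differences was not tested. Hyaluronan synthase Has2 lay in a bin with a difference of -0.17. The repeat-rich bin chr17:39000001-40000000 differed by -0.16 and the Sprr bin of chromosome 3 by -0.12 (adjusted p = 0.00568 and 0.0153, edgeR).

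**Figure D5:**
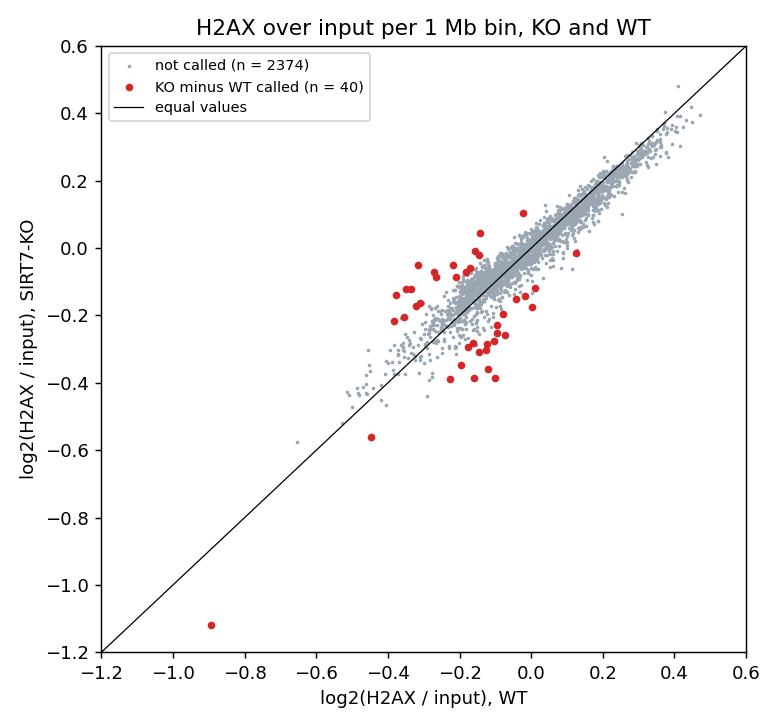
Log2 ratio of H2AX to input per bin in KO cells (vertical axis) against WT cells (horizontal axis). Grey points are bins without a called difference, red points the 40 bins called in the test of KO minus WT, and the line marks equal values. The points follow the line (r = 0.963), and most red points lie where both values are below 0.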

How the data were processed

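Samples fell into groups by their labels (H2AX or input, KO or WT, 2 each), and the 12 total columns of 1 table were matched to groups by name only. The authors deposited raw read counts per 1 Mb bin without scaling. Per the submitters' processing notes, the software, listed without roles, included Bowtie2 2.2.9, Trimmomatic 0.36 and FastQC 0.11.3, as well as MACS2 2.2.7.1, deepTools 2.4.2 and SAMtools 0.1.19. The build named is mm10. The sources used here do not state settings or how duplicate reads were treated, which can change counts in repeats. Of 144 columns of values 12 were read and 132 were not used here, among them counts per parental genome.

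Counts were tested with edgeR 4.0.16 in R 4.3.3 (quasi-likelihood F test, two-sided, Benjamini-Hochberg adjustment, threshold 0.05). Library sizes were autosomal totals and a mean count of at least 100 was required. The 4 KO libraries alone estimated the spread for KO (biological coefficient of variation 1.14%, residual df 2), and 8 libraries that for KO minus WT (1.52%). With so few residual degrees of freedom edgeR pooled the spread over bins, which makes p-values very small, so sizes are given first. For KO this pooling was complete, so the SE of a bin does not show that bin's own spread. An exact permutation of 2 against 2 cannot fall below 0.333, so none is reported. The test of H2AX against input in KO was checked on simulated counts. Genes were placed in bins by their lower coordinate in RefSeq of GRCm38.p6, whatever their strand. For a gene on the minus strand this is where the gene ends.

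Bins named in the text are the 12 highest and 12 lowest called bins that hold a protein-coding gene and whose libraries do not overlap, the 4 longest runs in each direction, the 5 smallest p-values of KO minus WT, and members of the gene lists. Those members and lists were chosen with earlier results of these data known. Has2 and Grik2 and the bins of gene families were named after their values were seen. Alternatives were DESeq2 1.42.0, TMM factors, other count minimums, shared estimates of spread, a replicate block, limma 3.58.1 and leaving out libraries. Some genes of the named bins and lists are not reported here.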

Additional observations from a re-analysis of the deposited data

Results flagged for a closer look

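The ratio of H2AX to input differed between KO and WT cells, in a test of the difference itself, in 40 bins. That count was 0 with all 12 libraries in the fit and 13 to 537 when 1 library was left out. Those among the bins named in the report were the bin of Flrt2 on chromosome 12 (-0.2830 on the log2 scale, KO minus WT), the gene-free bin from 95000001 on chromosome 2 (-0.2238), the bin of Marcks on chromosome 10 (0.2643), the bin of Col9a1 on chromosome 1 (-0.2264), the gene-free bin from 48000001 on chromosome 10 (0.2259) and the bin of Gad2 on chromosome 2 (-0.1148). Input stood further from the surrounding bins than H2AX in 32 of the 40 (80%), against 48.5% of all bins.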

How the results depend on the processing

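For H2AX over input in KO, TMM factors (955 higher, 1004 lower), DESeq2 (978 and 965), other count minimums, removal of repeat-rich and short bins, robust estimation and limma kept counts within 1.5 times of 887 and 1071. Leaving out each library in turn gave 793 to 872 higher and 971 to 1045 lower bins. With all 12 libraries, γH2AX included, 473 bins were higher and 664 lower (1137 in all), and beyond 1.1-fold 307 and 311 (618). DESeq2's factors moved the median log2 ratio by 0.016 and TMM by 0.011. Among autosomes, 1 was higher and 5 lower with all 12 libraries (6 in all), and DESeq2 called 5 lower. Chromosome 2 reversed to 0.0041 under DESeq2 and to 0.0007 without repeat-rich and short bins, and chromosome 6 to 0.0042 under DESeq2.

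For KO minus WT, DESeq2 called 83 higher and 94 lower bins (177 in all, with all 40 among them), and all 12 libraries 0 higher and 0 lower (0 in all, 88 at an unadjusted p under 0.05). Leaving out each library gave 5 to 227 higher, 7 to 310 lower and 13 to 537 in all. The most came without the NT-named WT H2AX library (537), which with its Xray-named partner spread more than the KO libraries, then 97 without that partner. The cause was not tested.

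A replicate block by column name gave 595 higher and 626 lower bins in KO (1221 in all) and 65 higher and 89 lower for KO minus WT (154 in all). Only 2 pairs exist and the names are no replicate numbers, and H2AX and input of like name deviated together only weakly (r = 0.112 over bins). Under the block the bin of Picalm kept 0.48 at an adjusted p of 0.0511, and the other 23 named bins with genes passed. Depth was not limiting, since the median bin held at least 55290 reads in each KO library.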

Other observations

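Outside the autosomes, X-linked bins held less H2AX than input. X reads amounted to 5.51% and 5.49% of autosomal reads in the H2AX libraries of KO cells and to 5.65% and 5.69% in input. That is a log2 ratio of -0.0447, and 125 of 168 X bins lay below input. Autosomal bins had a median log2 ratio of -0.02 against -0.05 in X bins. The autosomal median depends on the scaling, and was -0.0021 under DESeq2's factors and -0.0071 with TMM factors. Chromosomes 3 (-0.0861) and 13 (-0.0527) had lower ratios than X. In WT the ratio of X was -0.08. The values of X were not tested.

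Input itself differed between KO and WT by chromosome, which the ratio to input removes. Chromosome 10 had a median input level 1.31 times that of WT and chromosome 6 one of 0.823 times, and H2AX gave 1.31 and 0.828 times.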
